A study of Mus musculus with 16 samples.

Results

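Aminoacyl-tRNA synthetases, the enzymes that load each amino acid onto its tRNA, were followed through matched RNA-seq and Ribo-seq of mouse hair follicle stem cell (HFSC) organoids. Members were chosen by gene name, as genes whose symbol is a one-letter amino acid code followed by "ars" with or without a final digit, plus Eprs, Farsa, Farsb and Tarsl2. This gave 38 of the 22579 genes in the count tables, each represented by the transcript with the most ribosome footprints. Of these, 21 encode cytosolic enzymes and 17, with names ending in 2, encode mitochondrial enzymes, while Tarsl2, a further cytosolic-type threonyl enzyme, was counted as cytosolic. The table spells the cytosolic names in their older form without a final 1, and that form is kept here.

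HFSC organoid cultures of C57BL/6J mice were grown in 3D-3C conditions for 2 weeks and sorted on integrin alpha6 and CD34 into alpha6+CD34- progenitors and alpha6+CD34+ HFSCs. Cultures were either untreated or exposed to N1-acetylspermidine (N1-AcSpd), an acetylated polyamine, for 72 h. Each of the 4 groups held cells from the same 2 donor mice, and RNA-seq and Ribo-seq were made from parts of the same lysate. This gave 16 libraries, 2 per group and assay. The study compared the cell types and the treatment to ask how polyamines and translation relate to stem cell fate. The sorted cells are cultured cells of 2 donors, and the libraries measure populations, so fewer cells of a type and less RNA per cell cannot be told apart.

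As background, synthetases fall into class I and class II by the fold of their catalytic domain, and most amino acids have separate cytosolic and mitochondrial enzymes, both encoded in the nucleus, while the products of Gars and Kars serve both compartments. Several cytosolic enzymes sit together in the multisynthetase complex, held by the scaffold proteins Aimp1, Aimp2 and Eef1e1. Many cytosolic synthetase genes are known targets of ATF4, the transcription factor of the integrated stress response, which binds C/EBP-ATF response elements (CARE) in promoters.

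Values are given in CPM, counts scaled to a common library size after adjustment of each library by the trimmed mean of M values (TMM), and differences are log2 differences with standard errors (SE) from edgeR. A gene passed when its P value, adjusted over all genes tested in that comparison, was under 0.05. Where 2 values are joined by "and" for a group, they are replicates 1 and 2 in that order, which the labels assign to mouse 1 and mouse 2. The RNA-seq libraries held 21601141 to 31505435 counts on the transcripts kept and the Ribo-seq libraries 34467 to 267921 footprints, so the footprint values carry much larger counting error. Cd34, the sorting marker, was at 2.35 to 5.36 CPM in the RNA of progenitors and 67.4 to 89.9 CPM in HFSCs, and Krt15, a bulge keratin, at 96.8 to 190.1 CPM and 309 to 764 CPM. Itga6, on which both populations were sorted, was at 689 to 980.4 CPM in all 8 RNA-seq libraries, and the summed markers of fibroblasts, melanocytes, immune and endothelial cells reached at most 13.4, 2.12, 3.18 and 1.62 CPM. The difference between the mice correlated across 12242 genes at 0.35 to 0.65 among 3 RNA-seq groups, but at −0.61 to −0.39 between these and the treated HFSCs, whose replicate numbers thus ran opposite to the other groups. Whether the labels of these libraries are exchanged was not settled. The tests below compare group means and do not use the replicate numbers.

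Promoter sequences of RefSeq (GRCm38.p6), from 250 bases before to 50 bases after the annotated start, were at hand for 28 of the 38 members, 14 cytosolic and 14 mitochondrial. Cars, Hars, Hars2, Lars, Nars, Pars2, Rars, Vars and Wars were among those with no window in the table. The CARE core TGATGNAA, searched on both strands, was found in 5 of 14 cytosolic members (35.7%) and 0 of 14 mitochondrial members (0%), against 3.97% of 32851 windows of this length. The 5 members with the core were Aars, Gars, Iars, Tars and Yars, whose proximal promoters are printed below because they hold every match of the core in the windows searched. Each runs 5′ to 3′ along the gene, from 150 bases before to 28 bases after the start. Capitals mark the core, which reads on the strand opposite to the printed one in all but Yars. They lie at chr8:111033692-111033869 (plus strand, Aars), chr6:55037851-55038028 (plus strand, Gars), chr13:49681980-49682157 (plus strand, Iars), chr15:11399631-11399808 (minus strand, Tars) and chr4:129189753-129189930 (plus strand, Yars).
Aars: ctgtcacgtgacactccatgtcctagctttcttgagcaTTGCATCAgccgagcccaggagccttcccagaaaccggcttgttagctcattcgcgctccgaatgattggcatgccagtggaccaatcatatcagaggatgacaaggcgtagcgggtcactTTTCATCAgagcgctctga
Gars: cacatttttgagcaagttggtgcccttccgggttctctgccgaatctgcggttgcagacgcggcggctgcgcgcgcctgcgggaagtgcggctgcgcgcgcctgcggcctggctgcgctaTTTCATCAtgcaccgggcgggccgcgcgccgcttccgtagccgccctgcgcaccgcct
Iars: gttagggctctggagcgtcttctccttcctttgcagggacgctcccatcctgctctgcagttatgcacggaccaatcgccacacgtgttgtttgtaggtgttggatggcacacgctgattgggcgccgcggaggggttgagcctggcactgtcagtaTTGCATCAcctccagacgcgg
Tars: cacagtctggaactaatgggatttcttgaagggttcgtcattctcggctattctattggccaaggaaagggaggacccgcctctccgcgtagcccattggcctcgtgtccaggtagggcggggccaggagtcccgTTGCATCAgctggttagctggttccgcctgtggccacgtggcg
Yars: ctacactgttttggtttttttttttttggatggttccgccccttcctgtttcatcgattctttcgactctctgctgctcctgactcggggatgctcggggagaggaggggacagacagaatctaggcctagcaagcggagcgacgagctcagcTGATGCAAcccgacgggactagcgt

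Counted from the annotated start as +1, the core began at −112 and +10 in Aars, −30 in Gars, +8 in Iars, −15 in Tars and +4 in Yars. Every one of the 5 genes thus held a core within 50 bases of its start, a position range chosen after the matches were seen, where 1.16% of all windows hold one. The form TGATGCAA was present in 0.895% and TGATGAAA in 1.02% of all windows. The E-box CACGTG, which overlaps no match of the core here, was present in Aars, Farsb, Iars and Tars among the cytosolic members (4 of 14, 28.6%) and in Ears2 among the mitochondrial members (1 of 14, 7.14%), against 7.15% of all windows. Outside the family the core was found in 4 of 13 integrated stress response targets with a window (Asns, Chac1, Slc7a11 and Trib3) and in 0 of 14 tRNA charging partners. A match is a run of letters in this window and was not tested for binding.

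**Figure D1:**
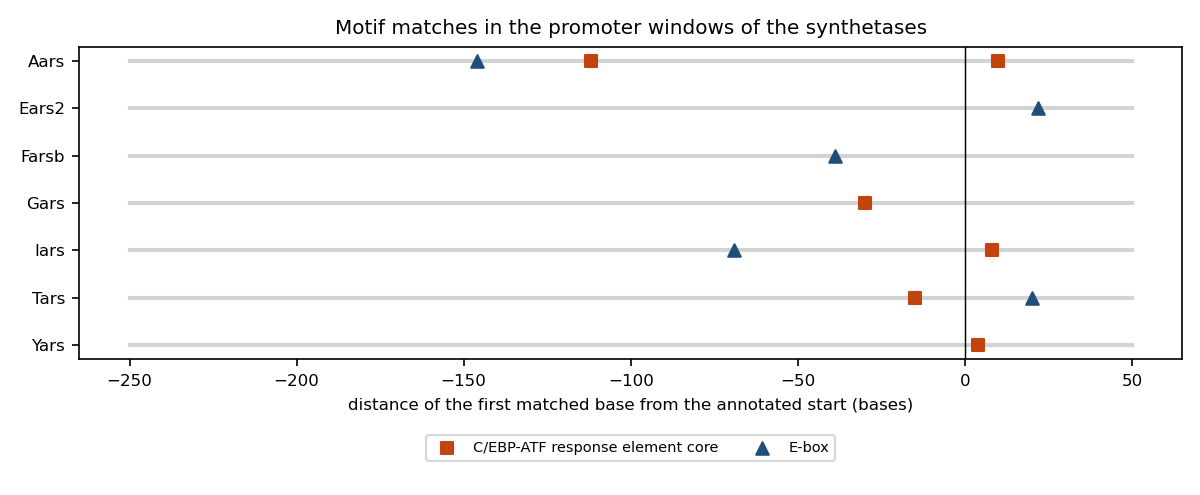
Positions of the CARE core (squares) and of the E-box (triangles) in the promoter windows (grey lines) of the 7 members with a match, in bases from the annotated start (vertical line), out of 28 members with a window. The core lies within 50 bases of the start in Aars, Gars, Iars, Tars and Yars, and Aars holds another at −112.

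The cytosolic enzymes were the abundant ones. Per kilobase of coding sequence the median RNA-seq level over the 8 libraries was 85.6 CPM for the 21 cytosolic and 14.2 CPM for the 17 mitochondrial members. Sars, the seryl enzyme, led with 330.1 ± 31.3 CPM per kb (SD, n = 8 libraries), followed by Nars (asparaginyl, 260 ± 28.6) and Gars (glycyl, 203 ± 28.1). Sars stood above every library of Nars, and Gars above every library of the next gene, Kars, whereas the libraries of Nars and Gars overlapped. From Kars (lysyl, 123 ± 10.0) down to Farsa (a phenylalanyl subunit, 53.9 ± 3.59) 16 cytosolic enzymes followed each other with overlapping libraries. Iars2, at 51.1 ± 3.08 CPM per kb, was the highest mitochondrial member and overlapped Wars (tryptophanyl, 38.3 ± 4.02), which was the lowest cytosolic enzyme apart from Tarsl2. The other 16 mitochondrial members ranged from 28.6 ± 2.17 (Tars2) to 4.22 ± 0.36 (Pars2), and Tarsl2 closed the order at 0.979 ± 0.251 CPM per kb.

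**Figure D2:**
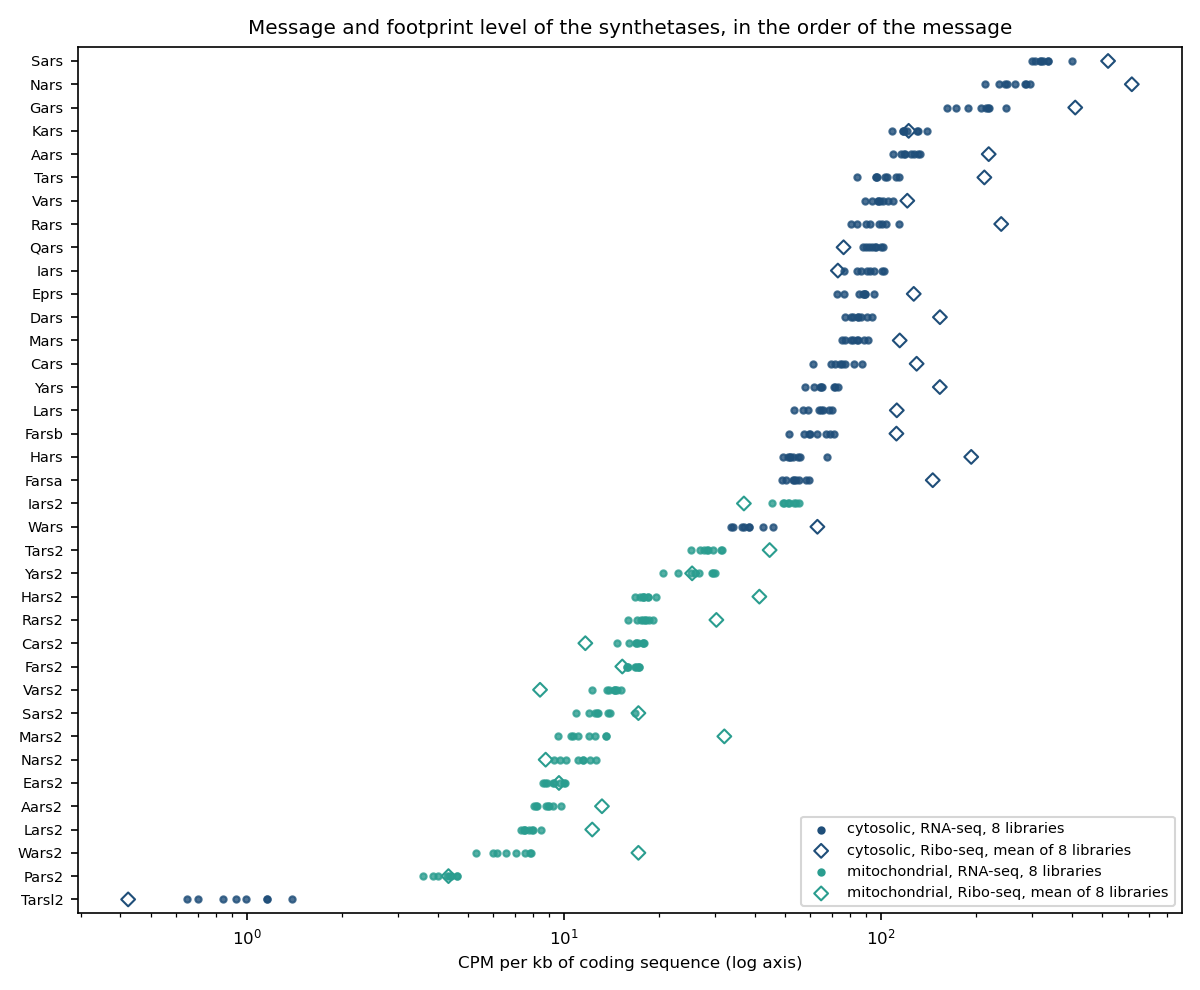
RNA-seq level of the members in the 8 libraries (points) and mean Ribo-seq level (open diamonds), in CPM per kb of coding sequence on a log axis, ordered by the RNA-seq mean. Cytosolic members fill the upper end of the order from Sars at 330.1 down to Wars at 38.3, Iars2 is the only mitochondrial member above Wars, and Tarsl2 lies lowest.

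The gap between the enzymes for one amino acid differed widely. Sars stood 25.5 ± 5.11 times (SD, n = 8 libraries) above its mitochondrial counterpart Sars2 per kb, and Nars 23.6 ± 1.77 times above Nars2. At the other end Iars, the isoleucyl enzyme, was 1.78 ± 0.094 times Iars2, Yars 2.54 ± 0.189 times Yars2 and Hars 3.03 ± 0.449 times Hars2. The ranges over libraries of the widest and the narrowest pair, 19.3 to 36.7 and 1.66 to 1.90, lay far apart. For glutamyl and prolyl tRNA, which Eprs serves with 1 fused protein in the cytosol, the ratio of Eprs to Ears2 was 9.22 ± 1.00 and to Pars2 20.5 ± 2.83. In Iars 81.3% of the 28-base words of the coding sequence were unique in the genome and in Kars 94.1%, so their counts depend on how reads with several matches were treated, which is not given in the sources used here. Coding exons also overlapped those of other genes for Cars2 (17.2%, Naxd, antisense), Vars2 (9.3%), Hars (5.88%, Hars2, antisense), Nars2 (5.79%) and Tarsl2 (5.06%).

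Footprints followed the same order in outline. The cytosolic median was 129.7 CPM per kb and the mitochondrial median 15.9 CPM per kb, with Nars (619 ± 159.8), Sars (521 ± 144) and Gars (410.3 ± 102) highest. The ratio of the 2 assays was read for the 19 cytosolic and 2 mitochondrial members with a mean of at least 10 footprints. Its median log2 value over the 19 was 0.84, against 0.73 over 2259 genes of that depth. The depth is set on the footprints, the numerator of the ratio, so genes with little message enter only with a high ratio. Hars, the histidyl enzyme, had the most footprints for its message (1.83, percentile 90.8 of those genes), followed by Farsa (1.44, percentile 80.9) and Rars (1.33, percentile 76.8). Iars2 (−0.46, percentile 9.74), Iars (−0.32, percentile 12.6) and Qars, the glutaminyl enzyme (−0.31, percentile 12.8), had the fewest. In Iars only 81.3% of the 28-base words were unique, so its ratio also depends on how footprints with several matches were treated. The members thus spread over most of the range of these genes.

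Between the cell types, the message of nearly all cytosolic synthetases was slightly lower in HFSCs. Averaged over both treatments, 20 of 21 cytosolic members had a negative log2 difference, with a median of −0.15 and Vars (valyl, 0.04) as the exception, against 7258 of 14205 genes tested and a median of −0.01. Of the 17 mitochondrial members 9 were lower, with a median of −0.02. The summed cytosolic message was 5127 and 5000.0 CPM in untreated and 5318 and 5258 CPM in treated progenitors, and 4757 and 4338 CPM in untreated and 4660.4 and 4835 CPM in treated HFSCs. All 4 HFSC libraries lay below all 4 progenitor libraries in this sum. The mitochondrial sum, 565 to 599 CPM in progenitors and 547 to 583 CPM in HFSCs, overlapped between the cell types. No single member passed the adjusted test in edgeR, where 3.91% of all genes did.

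**Figure D3:**
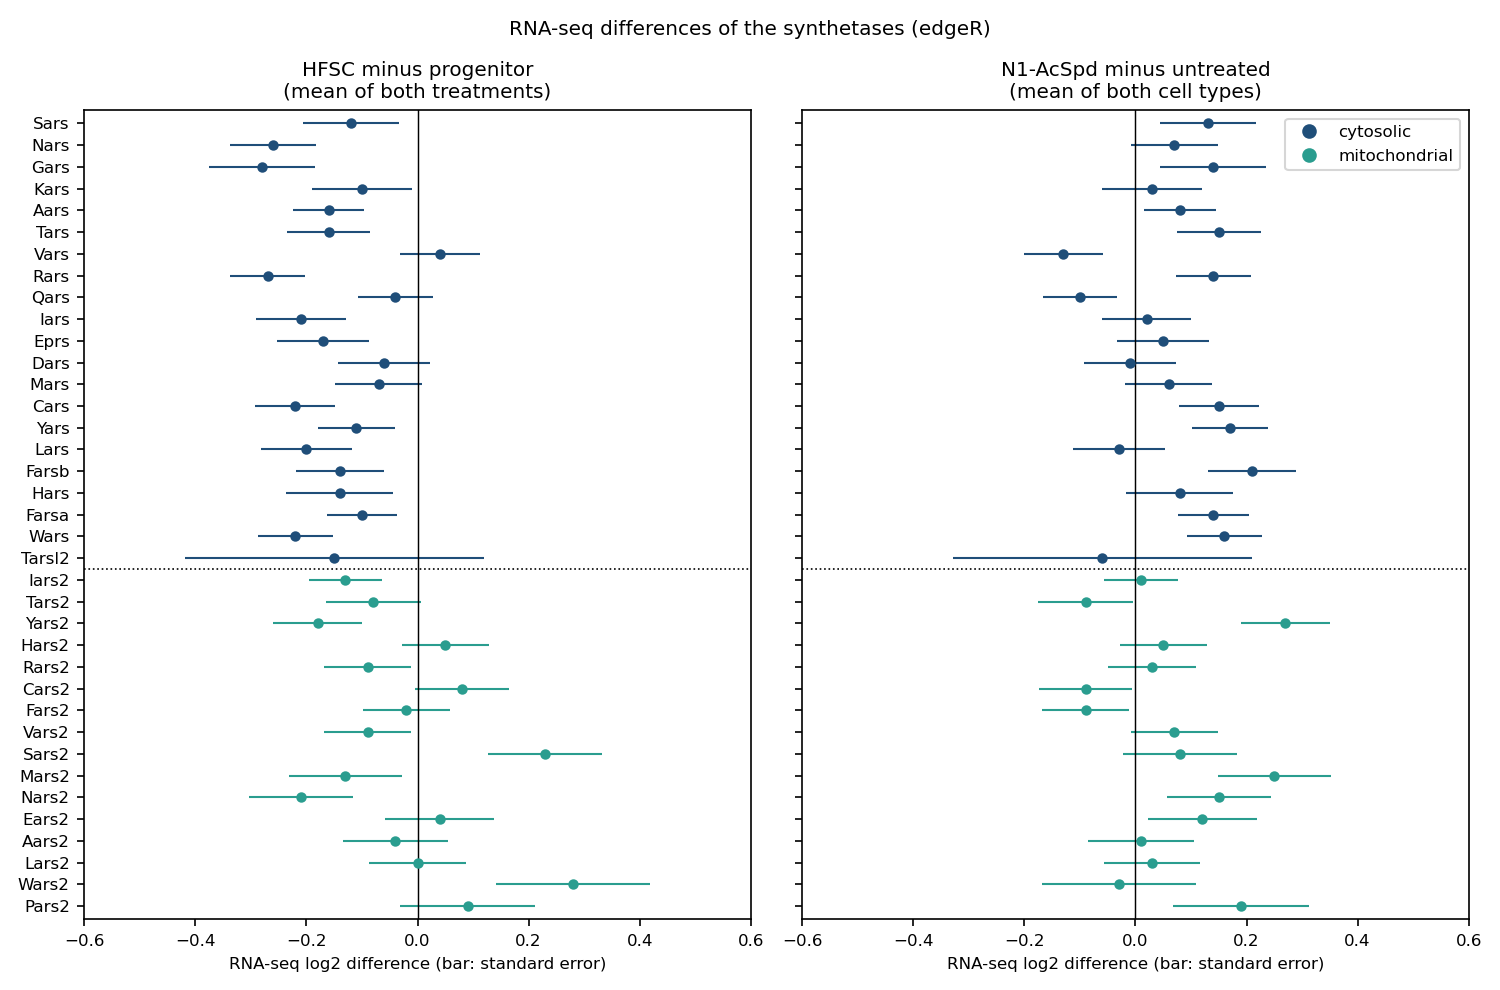
RNA-seq log2 difference of the members (points) with standard errors (bars), for HFSCs against progenitors (left) and N1-AcSpd against untreated (right), cytosolic members above and mitochondrial members below the dotted line, each ordered by level. On the left 20 of 21 cytosolic members lie below 0, from −0.28 (Gars) to 0.04 (Vars); on the right 16 of 21 lie above 0, and no member passed the adjusted test in either comparison.

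At an unadjusted P under 0.05, 9 members were lower in HFSCs and 1 was higher, against 8.88% and 9.22% of all genes. The lower ones were Aars, Cars, Gars, Iars, Lars, Nars, Rars and Wars of the cytosolic and Nars2 of the mitochondrial members, and the higher one was Sars2. DESeq2 called 1 member, Rars, at an adjusted P of 0.0247. Over the 17 settings of the analysis that give a test for Rars, this P ranged from 0.0124 to 0.235, and its log2 difference from −0.30 to −0.22. The lowest P came from a fit with the mouse as a block and the replicate numbers of the treated HFSCs exchanged, a setting chosen after seeing the data. It called Gars, Iars, Nars, Rars and Wars, 13.2% of the members, beside 13.7% of all genes, while the block with the numbers as labelled called 0 members. The count of 9 was not stable when single libraries were left out. Each omission leaves 1 library in a group and less information on the spread for every gene. Whether the change in the count is particular to the members was not tested. Nars, Rars and Wars stayed under the unadjusted threshold in 8 of 8 such omissions, and all 10 members kept their direction in 8 of 8.

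Rars, the arginyl enzyme of the multisynthetase complex (chr11:35808381-35834506, minus strand, GRCm38), measured 196 and 200.5 CPM in untreated and 206 and 226 CPM in treated progenitors, and 159.9 and 167 CPM in untreated and 184 and 178 CPM in treated HFSCs. The 4 HFSC values lay below the 4 progenitor values, by −0.27 (SE 0.0673, adjusted P = 0.067). Nars, the asparaginyl enzyme, measured 481 and 445 CPM in untreated and 495 and 478 CPM in treated progenitors, and 419 and 357 CPM in untreated and 395 and 413 CPM in treated HFSCs. Here too the groups did not overlap, and the difference was −0.26 (SE 0.0778, adjusted P = 0.111). Wars, the tryptophanyl enzyme (chr12:108860030-108894174, minus strand), measured 55.7 and 55.4 CPM in untreated and 65.9 and 61.3 CPM in treated progenitors, and 49.4 and 48.7 CPM in untreated and 52.9 and 53.7 CPM in treated HFSCs. Its HFSC values were below all progenitor values, with a difference of −0.22 (SE 0.0671, adjusted P = 0.121). In Gars (−0.28, SE 0.0957, adjusted P = 0.163) treated HFSC replicate 2 reached 469 CPM, above untreated progenitor replicate 2 at 454 CPM, so the groups overlapped.

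In 8 members all 4 HFSC libraries lay below all 4 progenitor libraries, and in none above them, against 4.42% and 5.1% of all genes. These were Aars, Cars, Eprs, Iars, Nars, Rars, Wars and the mitochondrial Iars2. Aars, the alanyl enzyme, measured 362.5 and 369.6 CPM in untreated and 387 and 381.5 CPM in treated progenitors, and 335.5 and 318 CPM in untreated and 347 and 344 CPM in treated HFSCs. Its highest HFSC library lay below its lowest progenitor library, and the difference was −0.16 (SE 0.0641, adjusted P = 0.232). Eprs, the fused glutamyl and prolyl enzyme, measured 405 and 406 CPM in untreated and 401 and 431 CPM in treated progenitors, and 388 and 329.6 CPM in untreated and 398 and 348 CPM in treated HFSCs, a gap of only a few CPM between the lowest progenitor and the highest HFSC library. Iars, the isoleucyl enzyme of the same complex, measured 389 and 350.5 CPM in untreated and 383 and 361 CPM in treated progenitors, and 343 and 289.7 CPM in untreated and 319 and 327 CPM in treated HFSCs, with a difference of −0.21 (SE 0.0808, adjusted P = 0.201). Iars2, its mitochondrial counterpart, measured 167.5 and 164 CPM in untreated and 162 and 156 CPM in treated progenitors, and 149 and 138 CPM in untreated and 155 and 151 CPM in treated HFSCs. Both enzymes for isoleucine were thus lower in every HFSC library than in every progenitor library. For Iars2 the gap was narrow, 155 against 156 CPM, and its unadjusted P was not under 0.05.

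The mitochondrial members were mixed. Sars2, the mitochondrial seryl enzyme, measured 18.7 and 20.0 CPM in untreated and 19.8 and 17.0 CPM in treated progenitors, and 19.5 and 21.5 CPM in untreated and 21.8 and 26.1 CPM in treated HFSCs, highest in treated HFSCs and overlapping elsewhere, with a difference of 0.23 (SE 0.103, adjusted P = 0.274). Wars2, the mitochondrial tryptophanyl enzyme, measured 6.65 and 6.50 CPM in untreated and 5.74 and 7.68 CPM in treated progenitors, and 8.15 and 8.52 CPM in untreated and 8.50 and 7.13 CPM in treated HFSCs. Only treated progenitor replicate 2 reached the HFSC range, and the difference was 0.28 (SE 0.139, adjusted P = 0.343). For tryptophan the cytosolic message was thus lower in HFSCs and the mitochondrial message higher in value, although neither passed the adjusted test. For serine, the cytosolic Sars measured 490.8 and 519.1 CPM in untreated and 488.6 and 615.9 CPM in treated progenitors. In HFSCs Sars measured 470.0 and 461.3 CPM in untreated and 519.9 and 499.0 CPM in treated cells. The message of Sars was lower in value in HFSCs, but the cell types overlapped, and neither Sars nor Sars2 passed the adjusted test.

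The difference was of the same size with and without treatment. In untreated cells 19 of 21 cytosolic members were lower in HFSCs (median −0.16, all genes −0.01) and in treated cells 19 of 21 (median −0.15, all genes 0.00). No member passed the adjusted test in either, where 0.148% and 0.746% of all genes did (21 and 106 genes, or 3 and 44 with the mouse as a block). At an unadjusted P, 0 members were higher and 2 lower in untreated cells (Nars and Rars, 9.58% of all genes in either direction), and 1 was higher (Sars2) and 3 were lower (Nars, Rars and Wars) in treated cells (11.2% of all genes). Rars differed by −0.28 (SE 0.0952) in untreated and by −0.26 (SE 0.0952) in treated cells. The interaction of cell type and treatment passed for 0 members in edgeR and DESeq2, and for 0% of all genes. It was under the unadjusted threshold for 0 members, against 0.831% of all genes, and its median over the cytosolic members was 0.00.

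**Figure D4:**
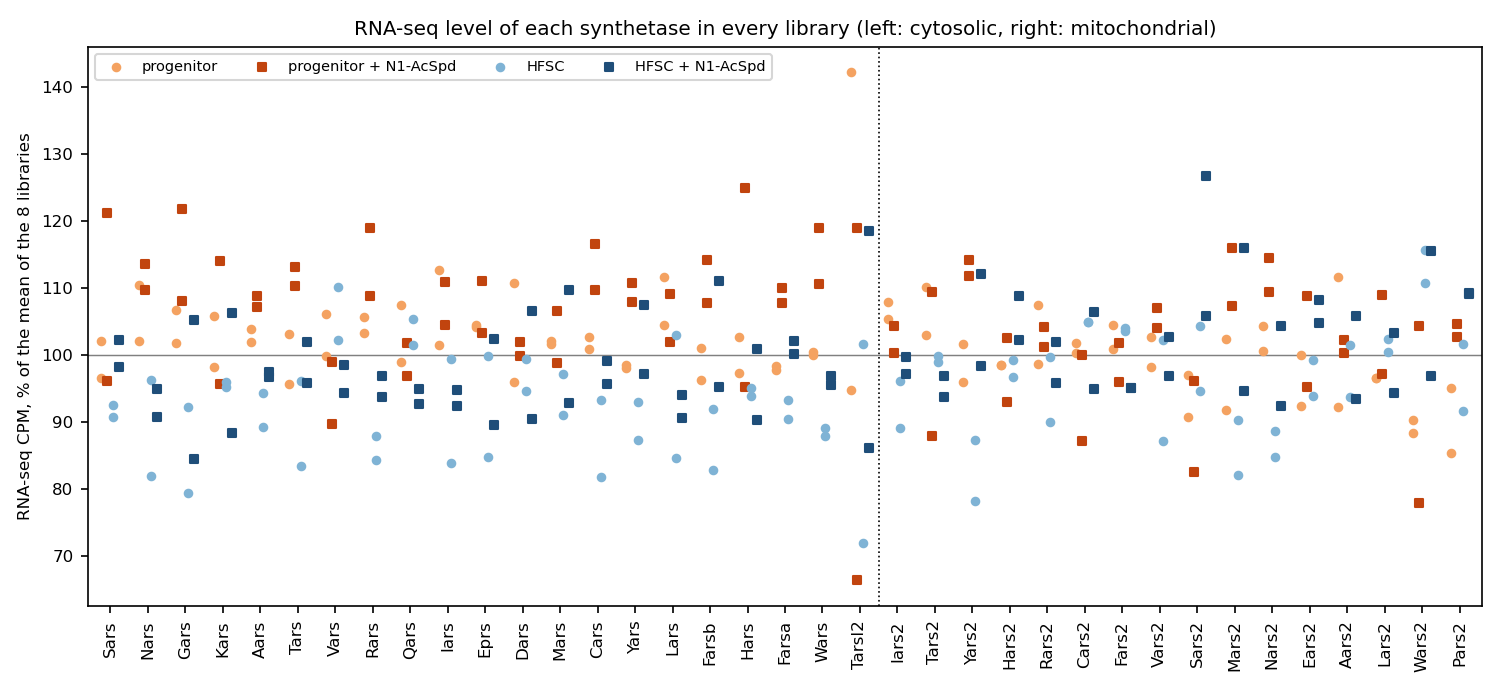
RNA-seq level of the members in every library, as a percentage of the mean of its 8 libraries, with cytosolic members left and mitochondrial members right of the dotted line. For 7 of 21 cytosolic members all red and orange progenitor points lie above all blue HFSC points, while the mitochondrial members show no common order, and Tarsl2, with 32 to 86 counts per library, scatters most.

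The sum of markers of late epidermal differentiation also differed in these comparisons. Their summed RNA-seq level over 5 genes (Ivl, Lor, Krt1, Krt10 and Flg, none at 0 in any group) was 50.1 to 62.9 CPM in untreated and 137 to 214 CPM in treated progenitors, and 27.6 to 27.7 CPM in untreated and 49.2 to 69.8 CPM in treated HFSCs. Ivl and Krt1 passed the adjusted test in both averages, Krt10 between the cell types only, and Lor and Flg in neither. Lor was not lower in untreated HFSCs than in untreated progenitors (0.09), and in HFSCs it was lower in value with N1-AcSpd (−0.38). The HFSC markers (Cd34, Krt15, Lhx2, Sox9 and Nfatc1) summed to 382 to 424 CPM in untreated and 259 to 284 CPM in treated progenitors, and to 1078 to 1248 CPM in untreated and 629 to 772 CPM in treated HFSCs. Krt15 among them fell with N1-AcSpd by 0.99 on the log2 scale (adjusted P = 0.00446) and was the only one of the 5 to pass. Sox9 (−0.44), Lhx2 (−0.12) and Nfatc1 (−0.12) were lower in value, and Cd34 was higher in value (0.21). The basal markers (Krt5, Krt14, Itga6, Itgb1 and Trp63) summed to 37730.9 to 41308.2 CPM in progenitors and 34660.6 to 37663.2 CPM in HFSCs. Between the cell types Krt5 (−0.14), Krt14 (−0.16), Itgb1 (−0.15) and Itga6 (−0.29) were lower in value in HFSCs. Trp63 was higher in value (0.12), and no basal marker passed the adjusted test. The part of these markers in the differences of the synthetases, between the cell types and with N1-AcSpd, was not tested.

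With N1-AcSpd, the cytosolic message was slightly higher in value in both cell types. Averaged over the cell types, 16 of 21 cytosolic members were higher in treated cells, with a median log2 difference of 0.08, as were 12 of 17 mitochondrial members with a median of 0.03, against 6694 of 14205 genes and a median of −0.01. In progenitors 16 of 21 cytosolic members were higher (median 0.07) and in HFSCs 18 of 21 (median 0.11). The summed cytosolic message of the 4 treated libraries, 4660.4 to 5318 CPM, overlapped that of the 4 untreated libraries, 4338 to 5127 CPM. Within progenitors both treated libraries lay above both untreated ones, and within HFSCs they did not. No member passed the adjusted test in the average (edgeR and DESeq2; 1.64% of all genes in edgeR, 135 of 14205 genes with the mouse as a block in place of 233), in progenitors (0.239%) or in HFSCs (0%).

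At an unadjusted P, 5 members were higher with N1-AcSpd in the average and 0 lower, against 7.63% and 7.99% of all genes. These were Farsb, Mars2, Wars, Yars and Yars2. The count of 5 also changed when single libraries were left out, and whether that change is particular to the members was not tested. Only Yars2 stayed under the unadjusted threshold in 8 of 8 omissions, and all 5 kept their direction. In progenitors alone 0 members were under that threshold (8.88% of all genes), and in HFSCs alone 1, Yars2 (7.74% of all genes).

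Yars2, the mitochondrial tyrosyl enzyme (chr16:16302965-16309640, plus strand), measured 35.8 and 37.9 CPM in untreated and 42.6 and 41.7 CPM in treated progenitors, and 29.2 and 32.6 CPM in untreated and 36.7 and 41.8 CPM in treated HFSCs. The treated values were above the untreated values of the same cell type, by 0.27 on average (SE 0.0806, adjusted P = 0.154), and by 0.19 in progenitors and 0.35 in HFSCs. Farsb, the other phenylalanyl subunit, measured 106 and 111 CPM in untreated and 126 and 119 CPM in treated progenitors, and 101 and 91.1 CPM in untreated and 105 and 122 CPM in treated HFSCs, with a difference of 0.21 (SE 0.0794, adjusted P = 0.256). Yars, the cytosolic tyrosyl enzyme, measured 110.0 and 110.5 CPM in untreated and 124 and 121 CPM in treated progenitors, and 104 and 98.0 CPM in untreated and 109 and 121 CPM in treated HFSCs, with a difference of 0.17 (SE 0.0689, adjusted P = 0.283). Both enzymes that charge tyrosine were thus among the 3 members with the smallest P. In Farsa and Pars2 all 4 treated libraries lay above all 4 untreated ones and in Vars below them, against 3.95% and 3.88% of all genes. Farsa measured 81.0 and 80.5 CPM in untreated and 90.5 and 88.7 CPM in treated progenitors, and 76.8 and 74.4 CPM in untreated and 82.4 and 84.1 CPM in treated HFSCs, and Pars2, the mitochondrial prolyl enzyme, 5.53 and 6.16 CPM in untreated and 6.78 and 6.66 CPM in treated progenitors, and 5.94 and 6.59 CPM in untreated and 7.08 and 7.07 CPM in treated HFSCs. The groups did not overlap in either, but in Pars2 the gap was narrow.

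Of the 38 members 10 were lower in value with the treatment. Vars, the valyl enzyme, measured 399.6 and 376 CPM in untreated and 373 and 338 CPM in treated progenitors, and 415 and 385 CPM in untreated and 355.5 and 371 CPM in treated HFSCs, with a difference of −0.13 (SE 0.0716, adjusted P = 0.421). Qars, the glutaminyl enzyme, measured 237 and 218 CPM in untreated and 214 and 224 CPM in treated progenitors, and 232 and 224 CPM in untreated and 209 and 204 CPM in treated HFSCs, with a difference of −0.10 (SE 0.0673, adjusted P = 0.543). Fars2, the mitochondrial phenylalanyl enzyme, measured 22.7 and 23.5 CPM in untreated and 21.6 and 22.9 CPM in treated progenitors, and 23.3 and 23.4 CPM in untreated and 21.4 and 21.4 CPM in treated HFSCs, and differed by −0.09 (SE 0.079, adjusted P = 0.647). In Qars and Fars2 the treated and untreated progenitor values overlapped, while both treated HFSC values were below both untreated ones.

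In Ribo-seq, 36 of 38 members were tested, since Pars2 and Tarsl2 had a mean under 1 footprint. Tarsl2 had 2 footprints in 1 library and 0 in the other 7, where a count of 0 allows up to 0.00870% of the footprints in the shallowest library. The family took 0.776% to 0.811% of the footprints in untreated HFSCs and 0.874% to 1.02% in the other 3 groups. The summed cytosolic footprints were 8337 and 9347 CPM in untreated and 9036 and 8457 CPM in treated progenitors, and 7003 and 7455 CPM in untreated and 8969 and 8225 CPM in treated HFSCs. Both untreated HFSC libraries were thus below the other 6, which overlapped. The mitochondrial footprints summed to 372 to 802 CPM, from 15 to 180 footprints per library. The treated progenitors, at 789 and 796 CPM, lay above both untreated groups, whose highest library was at 737 CPM, and all other pairs of groups overlapped.

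**Figure D5:**
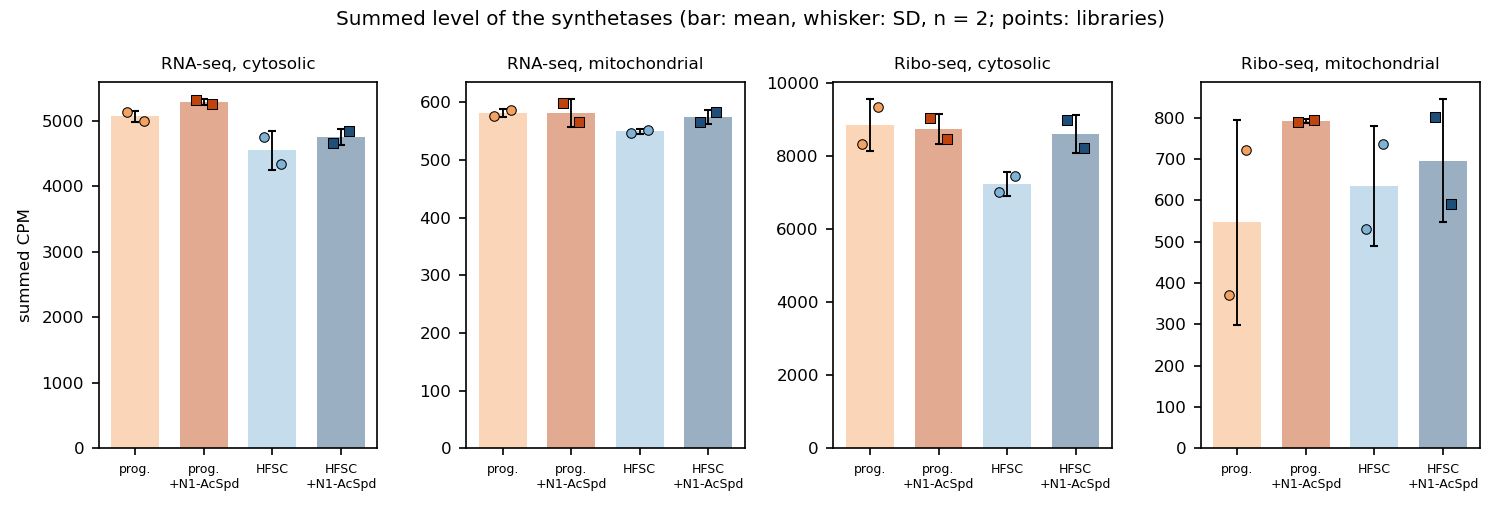
Summed CPM of the 21 cytosolic and the 17 mitochondrial members in RNA-seq and Ribo-seq, with bars for the mean, whiskers for the SD (n = 2 libraries) and points for the libraries. The cytosolic RNA-seq sums of HFSCs (4338 to 4835 CPM) lie below those of progenitors (5000.0 to 5318 CPM), and in Ribo-seq the untreated HFSCs (7003 and 7455 CPM) lie below the other groups.

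In untreated cells 18 of 20 cytosolic members had fewer footprints in HFSCs than in progenitors, with a median of −0.29 against −0.02 over all 8431 genes, and in treated cells 8 of 20, with a median of 0.09 against 0.03. The interaction was above 0 for 15 of 20 cytosolic members, with a median of 0.32 against 0.08 over all genes. Averaged over both treatments 12 of 20 were lower (median −0.12) and 7 of 16 mitochondrial members (median 0.05, all genes 0.00). The footprint comparisons passed the adjusted test for 0 members in edgeR and DESeq2: between the cell types, untreated (0.0237% of all genes in edgeR), treated (0.0356%) and averaged (0.154%), and for the interaction (0%). Members under an unadjusted P of 0.05 also numbered 0 in each of these, against 2.66%, 3.44%, 4.13% and 2.65% of all genes.

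The members that led this comparison did so within wide scatter. Nars measured 992.5 and 1320.4 CPM in untreated and 1381 and 1094 CPM in treated progenitors, and 567 and 879 CPM in untreated and 1196 and 870.1 CPM in treated HFSCs, from 32 to 329 footprints per library, with a difference of −0.46 (SE 0.271). Gars measured 744 and 947 CPM in untreated and 1307 and 1111 CPM in treated progenitors, and 585 and 832 CPM in untreated and 857.5 and 804.5 CPM in treated HFSCs, with a difference of −0.40 (SE 0.276). Lars, the leucyl enzyme, measured 447 and 449.5 CPM in untreated and 493 and 431 CPM in treated progenitors, and 248 and 372 CPM in untreated and 443 and 295.5 CPM in treated HFSCs, with a difference of −0.39 (SE 0.323). Nars and Gars, like their messages, were lowest in an untreated HFSC library, but the cell types overlapped in all 3. In Aars alone the 4 HFSC libraries were below the 4 progenitor libraries, with 819 and 767 CPM in untreated and 629 and 647 CPM in treated progenitors, and 585 and 531 CPM in untreated and 588 and 525 CPM in treated HFSCs, against 1.25% of all genes below and 1.39% above. The difference of Aars was −0.35 (SE 0.294), little more than its standard error.

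Iars and Eprs went the other way from their messages. Iars measured 198.5 and 297 CPM in untreated and 247 and 232 CPM in treated progenitors, and 248 and 388 CPM in untreated and 297 and 312 CPM in treated HFSCs, from 8 to 74 footprints, with a difference of 0.33 (SE 0.354). Eprs measured 422 and 626 CPM in untreated and 542 and 464 CPM in treated progenitors, and 674 and 713 CPM in untreated and 581 and 591 CPM in treated HFSCs, with a difference of 0.28 (SE 0.298). In Eprs, 1 untreated progenitor library at 626 CPM lay among the HFSC values, and in Iars 1 at 297 CPM did. Tars2, the mitochondrial threonyl enzyme, measured 49.6 and 96.3 CPM in untreated and 98.6 and 82.9 CPM in treated progenitors, and 159.6 and 150.5 CPM in untreated and 55.3 and 82.1 CPM in treated HFSCs, from 2 to 24 footprints, with a difference of 0.21 (SE 0.544), and only the untreated HFSCs stood above the rest. The adjusted P was 1.0 for each of these members.

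With N1-AcSpd, 9 of 20 cytosolic members had more footprints in the average (median −0.02, all genes −0.04) and 10 of 16 mitochondrial members (median 0.38), the cytosolic ones with 9 of 20 in progenitors (median −0.09) and 15 of 20 in HFSCs (median 0.24, all genes 0.00). No member passed in the average (0.083% of all genes in edgeR), in progenitors (0.0237%) or in HFSCs (0%), nor in DESeq2. Under the unadjusted threshold the count was 0 in each, against 4.84%, 2.8% and 3.56% of all genes. Hars, Kars and Ears2 had all 4 treated libraries above all 4 untreated ones and Nars2 all 4 below, against 1.47% and 1.54% of all genes. Ears2 and Nars2 had at most 4 footprints in a library.

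Hars measured 298 and 297 CPM in untreated and 357.5 and 332 CPM in treated progenitors, and 230.5 and 229.8 CPM in untreated and 304 and 312 CPM in treated HFSCs, from 12 to 74 footprints, close within each group. Kars measured 198.5 and 205 CPM in untreated and 222 and 216 CPM in treated progenitors, and 177 and 158 CPM in untreated and 263 and 312 CPM in treated HFSCs, with a difference of 0.44 (SE 0.388), and its highest values were in treated HFSCs. Sars measured 744 and 775 CPM in untreated and 567 and 978 CPM in treated progenitors, and 585 and 642 CPM in untreated and 906 and 1215 CPM in treated HFSCs, with a difference of 0.39 (SE 0.283). Both treated HFSC libraries were above both untreated ones, while the treated progenitor libraries lay on either side of the untreated ones. Gars, with the values given above, differed by 0.35 (SE 0.276), and both treated progenitor libraries exceeded both untreated ones, while the HFSC libraries overlapped.

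Among the members lower in value with N1-AcSpd, Rars measured 422 and 654 CPM in untreated and 456 and 497.5 CPM in treated progenitors, and 514 and 452 CPM in untreated and 380.3 and 427 CPM in treated HFSCs, a difference of −0.25 (SE 0.311), with overlap in progenitors and both treated HFSC libraries below both untreated ones. Farsa measured 323 and 217 CPM in untreated and 296 and 182 CPM in treated progenitors, and 213 and 229.8 CPM in untreated and 173 and 148 CPM in treated HFSCs, with a difference of −0.26 (SE 0.385), overlapping in progenitors and lower in both treated HFSC libraries. Tars2 differed by −0.54 (SE 0.535), with both untreated HFSC libraries at 150.5 and 159.6 CPM and all other libraries at 49.6 to 98.6 CPM. The adjusted P was again 1.0 for each.

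Translational efficiency, the change in footprints relative to the change in message tested in 1 model over both assays, gave no call. Between the cell types 17 of 20 cytosolic members were lower in untreated HFSCs (median −0.24, all genes −0.05), 5 of 20 in treated HFSCs (median 0.23, all genes 0.08) and 11 of 20 on average (median −0.03, all genes 0.00). With N1-AcSpd 16 of 20 were lower in progenitors (median −0.23, all genes −0.15) and 6 of 20 in HFSCs (median 0.21, all genes −0.02), with 10 of 20 on average (median 0.04, all genes −0.06). In all 6 comparisons 0 members and 0% of genes passed in edgeR, and 0 members in DESeq2.

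Under an unadjusted P of 0.05 there were 0 members between untreated cell types (5.24% of all genes), 0 between treated cell types (6.22%) and 1 in the average, Mars2 (1.38, SE 0.549, adjusted P = 0.793, a mean of 5.0 footprints; 6.01%). For N1-AcSpd the counts were 1 in progenitors, Cars (−0.73, SE 0.340, adjusted P = 0.792; 6.13%), 1 in HFSCs, Tars2 (−1.21, SE 0.531, adjusted P = 0.713; 6.89%), and 0 in the average (7.31%). The next members are those with the smallest P in each direction among members that averaged 10 or more counts per library in both assays. Higher in HFSCs than in progenitors were Iars (0.51, SE 0.262, adjusted P = 0.844) and Eprs (0.40, SE 0.226, adjusted P = 0.863). They were followed by Cars, the cysteinyl enzyme (0.18, but −0.08 without mouse 1 and 0.59 without mouse 2). Both Iars and Eprs are complex members with a negative difference in message. Lower in HFSCs were Aars (−0.20), Farsa (−0.26) and Nars (−0.22). Cars measured 188.5 and 192 CPM in untreated and 205 and 218 CPM in treated progenitors, and 174 and 153 CPM in untreated and 179 and 185 CPM in treated HFSCs in RNA-seq. Its footprints were 298 and 417 CPM in untreated and 259 and 298.5 CPM in treated progenitors, and 372 and 246 CPM in untreated and 387 and 312 CPM in treated HFSCs.

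With N1-AcSpd the members are again those with the smallest P among members that averaged 10 or more counts per library in both assays. Higher in value were Kars (0.40, SE 0.269, adjusted P = 0.772), Dars, the aspartyl enzyme (0.31), and Hars (0.23). Rars was lowest relative to its error, at −0.43 (SE 0.225, adjusted P = 0.697), with a message higher in value and footprints lower, followed by Tars2 (−0.53) and Farsa (−0.35). Dars measured 74.4 and 285 CPM in untreated and 247 and 365 CPM in treated progenitors, and 230.5 and 190.1 CPM in untreated and 311 and 148 CPM in treated HFSCs in Ribo-seq, from 3 to 71 footprints. Its value turned to −0.13 without treated HFSC Ribo-seq replicate 1.

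Within the cytosolic set, membership of the multisynthetase complex did not separate the messages by cell type. The 8 complex enzymes were lower in HFSCs in 8 of 8 cases (median −0.13) and the 13 enzymes outside it in 12 of 13 (median −0.15). With N1-AcSpd the complex enzymes were higher in 5 of 8 cases (median 0.03) and those outside it in 11 of 13 (median 0.14). Over both compartments, and leaving out Eprs, which joins a domain of each class, the 18 class I and 19 class II enzymes had medians of −0.10 and −0.10 between the cell types, and of 0.04 and 0.08 with N1-AcSpd. In the 5 members with a CARE core, whose promoters are printed above, the message was lower in HFSCs in 5 of 5 (median −0.16) and higher with N1-AcSpd in 5 of 5 (median 0.14). In the 9 cytosolic members with a window but no core it was lower in 9 of 9 (median −0.10) and higher in 6 of 9 (median 0.05). Cars, Hars, Lars, Nars, Rars, Vars and Wars had no window and are in neither set. Among them are Rars, Nars and Wars, the members with the smallest P between the cell types. None of these members passed the adjusted test, and the difference between the sets was not tested.

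Among the other genes of tRNA charging, most also had a negative difference in message between the cell types. Of 19 partners, among them the complex scaffolds, the elongation factors that carry charged tRNA, and the mitochondrial amidotransferase, 14 had less message in HFSCs (median −0.09) and 0 passed the adjusted test. Xpot, the exporter of tRNA from the nucleus, differed by −0.20 (adjusted P = 0.241), Eef1g, an elongation factor subunit that binds synthetases, by −0.15 (adjusted P = 0.291), and Trnt1, which adds the CCA end to tRNA, by −0.14 (adjusted P = 0.335). With N1-AcSpd 12 of 19 were higher in value (median 0.05), led by Trnt1 (0.19, adjusted P = 0.227), Tsfm, the mitochondrial elongation factor Ts (0.20, adjusted P = 0.302) and the scaffold Eef1e1 (0.19, adjusted P = 0.322). In footprints 10 of 19 were lower in HFSCs (median −0.08) and 11 of 19 higher with N1-AcSpd (median 0.43, all genes −0.04), and 0 passed.

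Of 14 targets of the integrated stress response outside the family, 13 had less message in HFSCs (median −0.14), a median close to that of the cytosolic synthetases, and 0 passed the adjusted test. Chac1, a glutathione-degrading enzyme, measured 42.1 and 44.3 CPM in untreated and 43.3 and 46.7 CPM in treated progenitors, and 37.5 and 34.0 CPM in untreated and 33.3 and 38.8 CPM in treated HFSCs, with a difference of −0.30 (adjusted P = 0.0943). Slc7a5, a transporter of large neutral amino acids, differed by −0.23 (adjusted P = 0.123), and Sesn2, a leucine-sensing stress protein, by −0.27 (adjusted P = 0.157). With N1-AcSpd 10 of 14 were higher in value (median 0.08). Slc7a11, the cystine transporter, measured 20.3 and 18.8 CPM in untreated and 40.7 and 25.5 CPM in treated progenitors, and 19.5 and 13.4 CPM in untreated and 21.8 and 40.4 CPM in treated HFSCs, with a difference of 0.84 (adjusted P = 0.117), in which 1 treated library of each cell type stood well above the other. Ddit3, a pro-apoptotic factor of the same response, differed by −0.33 (adjusted P = 0.324) and Shmt2, a mitochondrial serine enzyme, by 0.10 (adjusted P = 0.602). In footprints 10 of 14 were lower in HFSCs (median −0.06) and 11 of 14 higher with N1-AcSpd (median 0.20), among them Slc7a11 (1.36) and Atf4 itself (0.52), each with an adjusted P of 1.0. Stress targets and synthetases share the libraries compared, so their medians are not independent of each other.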

How the data were processed

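RNA-seq and Ribo-seq were deposited as read counts per transcript for 16 libraries, 2 donor mice in each of 4 groups and 2 assays. Before deposit the authors cleaned the reads of adapters (flexbar) and of rRNA and tRNA (bowtie), and mapped what was left with STAR on mm10 and its transcriptome. The submitters' processing notes list STAR 2.7.3a, Bowtie 1.2.3, featureCounts and GRCm38.p5. The counted region and the treatment of reads with several matches are not given in the sources used here. Of 3645 pairs of transcripts that share their coding sequence but not their exons, 99.6% had equal RNA-seq counts and 92.2% equal Ribo-seq counts.

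Gene names were taken from the authors' differential translation tables, whose counts equalled those of the count tables in 1024416 of 1024416 values. The fold changes and P values in these tables are the authors' own comparisons and were not used, and 2 of the 4 tables were not used at all. Each gene was represented by its transcript with the highest Ribo-seq count, out of 64026 transcripts, which gave 22579 genes after 33 further identifiers with a shared symbol were dropped. CPM used library sizes scaled by TMM. Differences were tested with edgeR 4.0.16 (quasi-likelihood, limma 3.58.1, R 4.3.3) on the counts as deposited, for genes averaging 1 count or more, with a mean for each of the 4 groups and Benjamini-Hochberg adjustment over all genes tested. Averages over the other factor used all 8 libraries of an assay. Translational efficiency was the interaction of assay and group over RNA-seq and Ribo-seq together, without a term that pairs the libraries of a lysate. The fits were tested on simulated counts with changes larger than those of the members, which does not show how well small differences are found. Tables and figures were made with Python 3.11.15.

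The members, gene lists and tests were chosen with earlier results of these data known. Values per library are given for the 3 members with the smallest P in each direction in each average (mean count 10 or more), and for further members, chosen after their values were seen, whose groups did not overlap or that were needed to read a pair of enzymes. Partner genes and stress targets were named by smallest P, at most 3 in each direction. Of the members, 1 is included in the counts, medians and sums but is not reported here by itself. The alternatives were RLE scaling, DESeq2 1.42.0, no minimum count or a higher one (mean of 10), a block for the mouse, a fit on just the libraries compared, other choices of transcript and each library or mouse left out. A block in which mouse 1 and mouse 2 trade places in the RNA-seq of treated HFSCs was added after seeing the data.

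The labels give a mouse identifier for each library, the same for all libraries of a replicate number, so the numbers pair the libraries by label. The deviations of mouse 1 and mouse 2 correlated at 0.35 to 0.65 among 3 RNA-seq groups, at −0.61 to −0.39 with the treated HFSCs (12242 genes) and at 0.01 to 0.10 in Ribo-seq (2259 genes). No pair of libraries of the same group and assay was a duplicate, with a chi-square per degree of freedom of 19.0 to 35.9 in RNA-seq and 1.99 to 2.71 in Ribo-seq. P values measure the spread between cultures of 2 mice, and limits for a count of 0 (3 counts) cover counting error only.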

Additional observations from a re-analysis of the deposited data

Results flagged for a closer look

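In Ribo-seq the difference of Kars between HFSCs and progenitors was −0.28 in untreated and 0.37 in N1-AcSpd-treated cells, with both untreated HFSC libraries below both untreated progenitor libraries and both treated HFSC libraries above both treated progenitor libraries. The interaction was 0.66 (SE 0.774, adjusted P = 1.0 in edgeR), so the change of direction was not larger than the spread between libraries.

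In Tars2 the order was the opposite, with a difference of 0.89 in untreated and −0.47 in treated cells and an interaction of −1.36 (SE 1.08, adjusted P = 1.0), on 2 to 24 footprints per library.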

How the results depend on the processing

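No member passed the adjusted test in any of the 20 comparisons under RLE scaling, either minimum count, the other choices of transcript or the mouse as a replicate block. DESeq2 called 1 member between the cell types (Rars). With the mouse as a replicate block 9 members, 8 of them shared with the fit without it, were lower in HFSCs at an unadjusted P under 0.05 (8.87% of all genes) and 4 were higher with N1-AcSpd (7.57%), and it changed no call of a member. With the exchanged numbers, chosen after seeing the data, the block called 5 members between the cell types (of 1948 genes, 13.7%) and 1 with N1-AcSpd (of 1260 genes, 8.87%), with 9 higher at an unadjusted P (11.0% of all genes). Genes called by DESeq2 numbered 949 between the cell types and 581 with N1-AcSpd, against 556 and 233. The 5 members higher with N1-AcSpd at an unadjusted P became 3 with no minimum count, 3 with counts summed over transcripts and 3 with DESeq2. The cause of these shifts was not tested.

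Leaving out each library in turn gave 4 to 10 members lower in HFSCs at an unadjusted P, 2 to 7 higher with N1-AcSpd, 17 to 20 cytosolic members with a lower message in HFSCs and a cytosolic median of −0.18 to −0.11. Leaving out 1 mouse gave log2 differences of the summed cytosolic message of −0.16 to −0.15 between the cell types and of 0.01 to 0.11 with N1-AcSpd. For mitochondrial footprints they ran from −0.20 to 0.27 and from −0.09 to 0.84, with the depth of 15 to 180 footprints per library as the limit. Among the named members the direction turned in 2 cases: Cars translational efficiency between the cell types (−0.08 without mouse 1, 0.59 without mouse 2) and Dars translational efficiency with N1-AcSpd (from −0.13 without treated HFSC Ribo-seq replicate 1 to 1.15 without untreated progenitor Ribo-seq replicate 2). Of the recomputed summary values 487 stayed within their spread or 1.5 times their count and 18 did not. Many of the 487 were counts of 0 called members that stayed at 0. The cytosolic to mitochondrial ratios without 1 mouse could not pass their limit, so the 487 is no measure of robustness. Of the values of single members 707 kept their direction and, where a test was made, their side of the threshold, 5 came past the threshold and 2 turned. The fits without 1 mouse gave no P.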
